A study of Mus musculus with 6 samples.

Results

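The cornified envelope and desmosome genes were chosen by gene symbol alone, as every listed gene of the late cornified envelope (Lce), small proline-rich (Sprr), desmoglein (Dsg1 to Dsg4), desmocollin (Dsc1 to Dsc3) and plakophilin (Pkp1 to Pkp3) families together with Lor, Flg, Flg2, Ivl, Hrnr, Rptn, Dsp, Jup, Ppl, Evpl, Tgm1, Tgm3, Tgm5, Cdsn and Casp14. The rule took 64 of the 45777 genes counted in 6 B16F10 melanoma tumors, and the rule uses no measured value. In 57 of the 64 genes at least 1 read was counted in some tumor, and 51 held 10 reads or more over all tumors. Most of the reads lay in a single tumor, footpad replicate 2.

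The cornified envelope is the protein shell that replaces the plasma membrane of a keratinocyte in the last steps of its differentiation. Transglutaminases bind its precursors to each other, first involucrin, envoplakin and periplakin at the membrane, then loricrin, small proline-rich and late cornified envelope proteins. Desmosomes join neighboring keratinocytes: desmogleins and desmocollins span the membranes, plakoglobin and plakophilins form the plaque, and desmoplakin ties it to keratin filaments. Both structures are best known from epidermis and its appendages, whereas desmosomes also occur in simple epithelia and heart muscle, and melanocytes are not known to build cornified envelopes.

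B16F10 is a mouse melanoma cell line, and its cells had been grafted into the hind footpad or the flank skin of mice whose genotype is labelled Foxn1-/- and whose age is labelled 8 weeks, in both groups. Foxn1 is the gene mutated in nude mice, where hair and epidermal differentiation are defective besides the missing thymus, so that hosts of both groups shared this state of the epidermis, while the methods of the study also describe grafts into C57BL/6J mice. Each site gave 3 tumors, sequenced as 1 library of total RNA apiece, and p-values measure the spread between these samples. The study counts mice as its replicates and gives n = 3 mice for the gene levels it plots from these data. It describes grafting cells into the flank and the footpad at the same time, in nude mice among others. The sources used here do not say which sequenced footpad and flank tumors shared a mouse, and the main comparison did not pair them. According to the labels tumors were taken out of their sites, whereas the methods of the study speak of isolated tumor cells and do not say how these were parted from host tissue.

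Counts on genes summed to between 46529649 and 66364366 reads per tumor. The detection limit was set at 3 reads, which correspond to 0.0438 to 0.0673 CPM depending on the tumor. CPM is the count relative to the library size as scaled by edgeR's TMM method. Melanocyte genes were abundant in all 6 tumors, with a summed level of 10 markers between 10113 and 25658 CPM. Krt9, the keratin of palm and sole epidermis, had no read in any footpad tumor and 0.121 CPM in flank replicate 1, so that it did not mark the footpad tumors.

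Of the 64 genes, 43 lie in the epidermal differentiation cluster on chromosome 3 (GRCm38), which spans 1319 kb from 92080271 to 93399442 and holds all Lce and Sprr genes here as well as Lor, Ivl, Flg, Flg2, Hrnr and Rptn. To show examples of the sequence upstream of an Lce gene and of precursor and filaggrin-type genes, the 250 bases before the RefSeq start (GRCm38.p6) are printed 5′ to 3′ on the gene's strand for Flg at chr3:93273296-93273545 (plus strand), Hrnr at chr3:93319499-93319748 (plus), Lor at chr3:92083143-92083392 (minus) and Lce1a1 at chr3:92648308-92648557 (minus). Capitals mark the AP-1 letters TGANTCA and the TATA box letters TATAAA, searched on both strands. N stands for any base, so that TGAATCA in Flg was counted as well as TGAGTCA in Lor.
Flg: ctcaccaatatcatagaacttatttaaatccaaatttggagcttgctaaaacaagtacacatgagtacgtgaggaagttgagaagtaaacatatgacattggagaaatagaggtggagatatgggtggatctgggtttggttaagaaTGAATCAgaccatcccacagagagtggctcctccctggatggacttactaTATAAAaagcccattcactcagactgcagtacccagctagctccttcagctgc
Hrnr: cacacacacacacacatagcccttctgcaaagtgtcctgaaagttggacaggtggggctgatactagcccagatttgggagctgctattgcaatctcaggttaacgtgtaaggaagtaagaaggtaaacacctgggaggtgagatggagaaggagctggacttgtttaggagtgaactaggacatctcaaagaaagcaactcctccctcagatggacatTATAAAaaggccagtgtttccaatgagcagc
Lor: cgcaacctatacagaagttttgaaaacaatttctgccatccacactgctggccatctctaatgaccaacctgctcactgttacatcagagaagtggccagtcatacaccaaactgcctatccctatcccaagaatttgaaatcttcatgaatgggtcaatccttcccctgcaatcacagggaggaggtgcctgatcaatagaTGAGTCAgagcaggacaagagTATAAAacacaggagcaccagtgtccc
Lce1a1: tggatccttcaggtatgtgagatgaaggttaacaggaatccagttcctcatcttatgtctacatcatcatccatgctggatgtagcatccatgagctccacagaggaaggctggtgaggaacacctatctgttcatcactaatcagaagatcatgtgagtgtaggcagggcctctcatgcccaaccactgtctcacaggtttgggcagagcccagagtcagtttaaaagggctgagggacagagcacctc
Flg and Lor each held both sets of letters, Hrnr held only TATAAA, and Lce1a1 held neither. Promoters were matched for 47 of the 64 genes, of which 40 are in the cluster. AP-1 letters stood upstream of 14 of these 40 (35%), against 6.75% of all 32851 promoters of the table, and TATAAA upstream of 19 of 40 (47.5%), against 12.4%. The families of the cluster differed in this: AP-1 letters were found in 5 of 6 precursor and filaggrin-type genes and 9 of 14 Sprr genes, but in 0 of 20 Lce genes. A match describes these letters only and is no evidence of a bound factor.

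The summed level of all 64 genes was 107 CPM in footpad replicate 1, 1400 CPM in footpad replicate 2 and 53.1 CPM in footpad replicate 3, and 51.7, 38.8 and 40.8 CPM in flank replicates 1, 2 and 3. Footpad replicate 2 thus held 82.8% of the summed CPM of the 6 tumors, 13.1 times the next tumor, whereas footpad replicates 1 and 3 lay closer to the flank tumors than to it. The reads behind these sums were 4771, 95979 and 2599 in the footpad tumors and 3000, 2271 and 2552 in the flank tumors. In 49 of the 51 genes with 10 reads or more, footpad replicate 2 was the highest tumor, and in 25 of them it was at least 10 times the next tumor or the limit of detection, whichever was larger. Among the 17210 genes of the whole table tested below, it was the highest tumor in 16% and at least 10 times the next in 0.308%. Those genes passed a filter that needs reads in 3 tumors, which most of the 51 did not pass. The shares therefore compare only with the 18 members tested. In these 18 it was the highest tumor in 16 and at least 10 times the next in 10. The exceptions were Sprr1a, highest in flank replicate 2, and Pkp2, highest in flank replicate 1. In bulk RNA such as this, fewer cells of a type and less RNA per cell cannot be told apart.

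The tumors also differed in how many of the genes were detected at all. In footpad replicate 2, 56 of the 64 genes had a read, against 33 and 26 in footpad replicates 1 and 3. Flank replicates 2 and 3 had reads on 26 and 38 genes. Flank replicate 1 had reads on only 7 genes although its library was the third deepest, and 2988 of its 3000 reads fell on just 5 genes, Pkp2, Jup, Pkp3, Dsp and Cdsn. These 5 were the only ones with 10 reads or more in every tumor. The other 59 genes summed to 52.8, 1170 and 8.86 CPM in footpad replicates 1, 2 and 3 and to 0.207, 6.72 and 11.7 CPM in the flank tumors, so that the 2 lowest footpad values bracketed the flank replicate 3 value. Footpad replicate 2 held 93.6% of this sum.

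**Figure D1:**
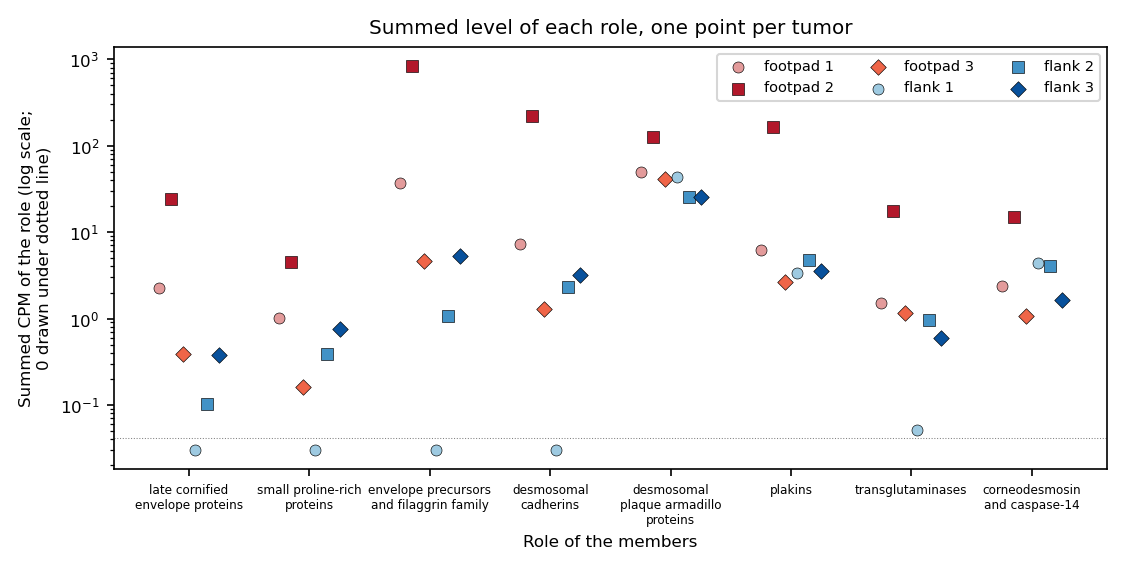
Summed CPM (log scale) of the genes of each role, with 1 point per tumor (reds for footpad, blues for flank, zeros drawn under the dotted line). Footpad replicate 2 lies highest in every role, by the least for the desmosomal plaque armadillo proteins, and flank replicate 1 is at 0 in 4 of the 8 roles.

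The envelope precursors and filaggrin-type proteins carried the largest part. Hrnr (gene ID 68723, chromosome 3, 93319749 to 93333572) encodes hornerin, a filaggrin-like protein of the upper epidermis, and measured 18.0, 660.4 and 2.45 CPM in footpad replicates 1, 2 and 3 and 0, 0.171 and 3.10 CPM in flank replicates 1, 2 and 3. Its 45279 reads in footpad replicate 2 were 47.2% of all reads on the 64 genes there (95% Clopper-Pearson interval 46.9 to 47.5, which covers counting error only). Flank replicate 3 exceeded footpad replicate 3, so the sites overlapped, and footpad replicate 2 was 36.8 times the next tumor. Per length, Hrnr was the highest of the 64 genes in that tumor at 57.7 FPKM, which ranked 1166 among all listed genes. On the log2 scale the fitted difference of footpad over flank was 7.68 with a standard error of 2.39, and the adjusted p of edgeR's quasi-likelihood test was 0.102.

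Flg (gene ID 14246, chromosome 3, 93273546 to 93293689) encodes profilaggrin, whose repeats bundle keratin filaments. It measured 17.1, 149 and 1.74 CPM in footpad replicates 1, 2 and 3 and 0, 0.753 and 1.81 CPM in the flank tumors. Footpad replicates 1 and 2 stood above every flank tumor, while footpad replicate 3 lay just below flank replicate 3. The fitted log2 difference was 6.02 with a standard error of 1.75 and an edgeR adjusted p of 0.088, whereas DESeq2 gave an adjusted p of 0.0365 and so called it higher. Over the alternatives its adjusted p ranged from 0.0365 to 0.294.

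Lor encodes loricrin, the major protein of the mature envelope, and measured 0.965, 9.68 and 0.122 CPM in the footpad tumors and 0, 0 and 0.128 CPM in the flank tumors. Rptn, which encodes repetin, another filaggrin-type protein, measured 0, 6.77 and 0.306 CPM in the footpad tumors and 0, 0.0855 and 0.128 CPM in the flank tumors. Neither passed the filter on low counts. The last members of this role held fewer reads: Flg2 (filaggrin-2) had 46, 236 and 0 in the footpad tumors and 9 in flank replicate 3 alone, and Ivl (involucrin) had 4, 76 and 3 in the footpad tumors and 4 in flank replicate 2 alone. As a whole the 6 genes of this role summed to 37.1, 830 and 4.68 CPM in the footpad tumors and to 0, 1.08 and 5.30 CPM in the flank tumors, with 94.5% in footpad replicate 2.

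The Lce genes encode small late structural proteins of the envelope. Of 21 listed, 20 had a read in footpad replicate 2 and 1, Lce3a, had none in any tumor, and 0 passed the filter on low counts. The Lce1 genes held most of the reads: Lce1a1 had 264 reads in footpad replicate 2, 33 in footpad replicate 1 and 6 in flank replicate 3. Lce1b followed with 185, Lce1i with 176 and Lce1c with 147 reads in that tumor. Lce1a2, Lce1e and Lce1h had 105, 102 and 103 reads there and none elsewhere, a level at least 22.7-fold, 22.1-fold and 22.3-fold higher than the limit of 3 reads in the shallowest of the other libraries. In contrast, no Lce3 gene reached more than 16 reads in a tumor, and Lce6a had 32, all in footpad replicate 2. Summed, the Lce genes came to 2.27, 23.9 and 0.388 CPM in the footpad tumors and to 0, 0.103 and 0.383 CPM in the flank tumors.

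The small proline-rich proteins, which bridge other envelope proteins, did not follow this pattern throughout. Of 16 Sprr genes, 6 had no read in any tumor (Sprr2e, Sprr2f, Sprr2i, Sprr2j-ps, Sprr2k and Sprr3). Sprr2b had 7 reads in footpad replicate 1 and 145 in footpad replicate 2, and none elsewhere. Sprr1b had 71 reads in footpad replicate 2, 6 in footpad replicate 3 and 12 in flank replicate 3. Sprr1a, the only Sprr gene tested, had 10, 17 and 2 reads in the footpad tumors and 0, 23 and 11 in the flank tumors, with an edgeR adjusted p of 0.954. Footpad replicate 2 therefore held 66.3% of the summed CPM of this family, less than the 88.4% of the Lce genes. The gene pairs Lce1k and Lce1l, and Sprr2a1 and Sprr2a2, had identical counts in all 6 tumors. Near-identical copies such as these, and the Dsg1 genes, are uncertain because the treatment of reads that match several genes is not given in the sources used here.

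**Figure D2:**
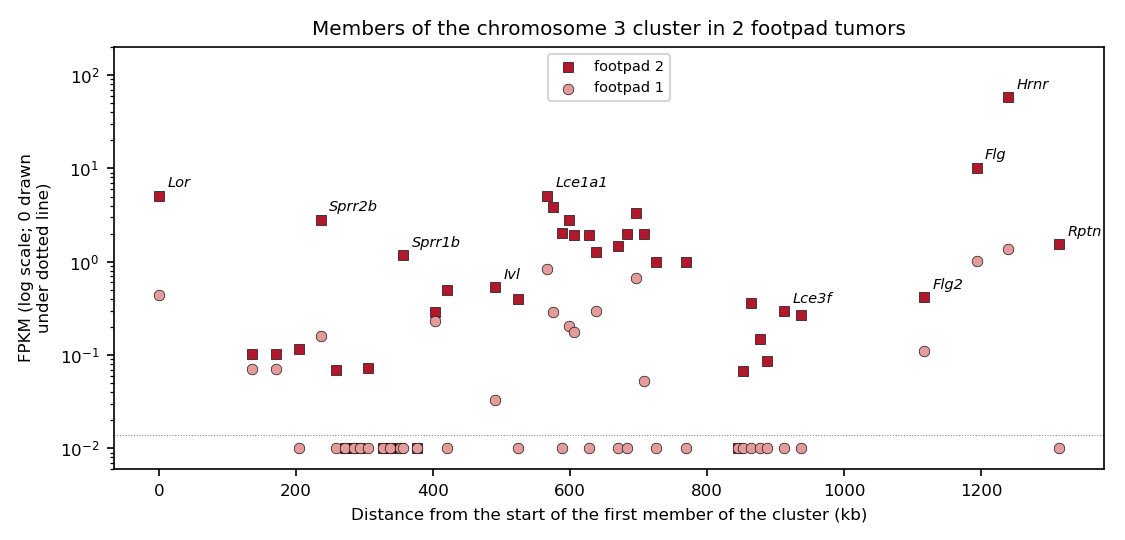
FPKM (log scale) of the 43 genes of the chromosome 3 cluster in footpad replicates 2 and 1 against their distance in kb from the start of the first gene, with zeros drawn under the dotted line. Levels in footpad replicate 2 run up to 57.7 FPKM at Hrnr and lie between 0.271 and 5.10 FPKM for the Lce1 genes in the middle, while the Sprr2 stretch holds most of the zeros of that tumor.

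Along the cluster, the letters upstream of a gene did not order the levels in a simple way. In footpad replicate 2 the median level was 0.354 FPKM over the 14 genes with the AP-1 letters and 0.748 FPKM over the 26 without. It was 0.288 FPKM over the 19 genes with TATAAA and 0.994 FPKM over the 21 without. Hrnr, with the highest level, had no AP-1 letters in the 250 bases printed above, and Flg, second with 10.2 FPKM, had both. These are descriptions of a single tumor and carry no test.

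The desmosomal cadherins are the adhesive transmembrane proteins of the desmosome. Dsg1a (gene ID 13510), a desmoglein of the upper epidermal layers, measured 3.05, 83.7 and 0.408 CPM in the footpad tumors and 0, 0.411 and 0.975 CPM in the flank tumors. Dsg1b, its neighboring copy, measured 1.26, 41.7 and 0.408 CPM in the footpad tumors and 0, 0.462 and 0.479 CPM in the flank tumors. For both, footpad replicate 3 lay below flank replicates 2 and 3, and the edgeR adjusted p was 0.12 and 0.125 at log2 differences of 5.96 and 5.51. Dsc1 (gene ID 13505), the desmocollin of differentiated layers, measured 1.37, 62.9 and 0.163 CPM in the footpad tumors and 0, 0.513 and 0.767 CPM in the flank tumors. It stood 45.97 times above the next tumor in footpad replicate 2, more than any other gene with over 3 reads in the next tumor. Dsc3, a desmocollin of the lower layers, measured 1.12, 23.3 and 0.184 CPM in the footpad tumors and 0, 0.479 and 0.575 CPM in the flank tumors. Their log2 differences were 5.64 and 4.54, with edgeR adjusted p of 0.148 and 0.171.

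The remaining cadherins were sparse. Dsg3, the desmoglein of the basal layers, had 182 reads in footpad replicate 2 and 10 and 9 in flank replicates 2 and 3. Dsg1c had 7 reads in footpad replicate 1, 296 in footpad replicate 2 and 6 in flank replicate 3. Dsg2 and Dsc2, the pair also used by simple epithelia and heart, differed: Dsg2 had 36 reads in footpad replicate 2 and none elsewhere, while Dsc2 had 12, 30 and 7 in the footpad tumors and 0, 10 and 9 in the flank tumors, with an edgeR adjusted p of 0.408. Dsg4, the desmoglein of the hair shaft, had 16 reads in footpad replicate 2, 8 in flank replicate 2 and 2 in flank replicate 3. All 9 cadherin genes were at 0 in flank replicate 1.

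The armadillo proteins of the plaque were spread over the tumors most evenly, with 40.3% of their summed CPM in footpad replicate 2. Pkp2 (gene ID 67451, chromosome 16, 16213345 to 16272712), the plakophilin of heart and simple epithelia, measured 29.5, 27.97 and 26.5 CPM in the footpad tumors and 33.7, 11.7 and 15.8 CPM in the flank tumors. The 3 footpad tumors lay within 1.49 CPM (SD) of their mean of 27.98 CPM, and flank replicate 1 lay above them all. Its edgeR adjusted p was 0.46, and without flank replicate 1 it was 0.0461 at a log2 difference of 1.02 with a standard error of 0.17, which is the single call made among the 64 genes by any edgeR fit run here (1.73% of all genes were called in that fit). Pkp2 made up 65.1% of the reads on the 64 genes in flank replicate 1 (95% Clopper-Pearson interval 63.4 to 66.8), against 1.998% in footpad replicate 2.

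Jup (gene ID 16480, chromosome 11, 100368856 to 100397839) encodes plakoglobin, which is shared by desmosomes and adherens junctions. It measured 14.7, 32.8 and 11.3 CPM in the footpad tumors and 6.30, 11.1 and 7.51 CPM in the flank tumors, so that the sites did not overlap, although footpad replicate 3 was close to flank replicate 2. The mean was 19.6 ± 11.6 CPM (SD, n = 3) in footpad and 8.30 ± 2.499 CPM (SD, n = 3) in flank tumors. The log2 difference was 1.24 with a standard error of 0.42, at an adjusted p of 0.123 by edgeR and 0.0218 by DESeq2. Pkp1, the plakophilin of differentiated epidermis, measured 2.38, 55.0 and 0.367 CPM in the footpad tumors and 0, 0.838 and 0.799 CPM in the flank tumors. Pkp3, found in desmosomes of most epithelia, measured 2.81, 9.19 and 3.51 CPM in the footpad tumors and 3.92, 1.59 and 1.21 CPM in the flank tumors. Pkp1 thus resembled the cadherins in its order of tumors, and Pkp3 did not, with flank replicate 1 its second tumor.

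The plakins link the plaque and the early envelope to keratin filaments. Dsp (gene ID 109620, chromosome 13, 38151294 to 38198577), which encodes desmoplakin, measured 5.05, 146 and 1.94 CPM in the footpad tumors and 3.23, 3.73 and 3.05 CPM in the flank tumors. The flank tumors differed little, with 3.34 ± 0.352 CPM (SD, n = 3), and footpad replicate 3 lay below all of them. The fitted log2 difference of 3.93 (edgeR adjusted p = 0.148) was 0.07 without footpad replicate 2. Evpl (envoplakin) measured 0.561, 8.56 and 0.143 CPM in the footpad tumors and 0.155, 0.445 and 0.304 CPM in the flank tumors, and DESeq2 gave it an adjusted p of 0.0219, edgeR 0.175. Ppl (periplakin) measured 0.606, 9.76 and 0.572 CPM in the footpad tumors and 0, 0.565 and 0.240 CPM in the flank tumors. In Ppl the sites did not overlap only by the narrow gap between footpad replicate 3 and flank replicate 2.

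Transglutaminases form the bonds of the envelope. Tgm1 (gene ID 21816, chromosome 14, 55700009 to 55713921), the membrane-bound enzyme, measured 1.12, 5.66 and 1.16 CPM in the footpad tumors and 0.0517, 0.530 and 0.128 CPM in the flank tumors. All footpad tumors lay above all flank tumors, and footpad replicates 1 and 3 were nearly equal. The log2 difference was 3.48 with a standard error of 1.00, and its edgeR adjusted p of 0.0849 was the lowest among the 18 genes tested. Without footpad replicate 2 the log2 difference was 2.26 at an edgeR adjusted p of 0.165. DESeq2 gave an adjusted p of 0.00217 over all tumors. Tgm3, the enzyme of late differentiation and hair, measured 0.404, 11.2 and 0 CPM in the footpad tumors and 0, 0.274 and 0.431 CPM in the flank tumors. Its log2 difference of 4.03 (edgeR adjusted p = 0.246) turned to -0.24 without footpad replicate 2. Tgm5 had 50 reads in footpad replicate 2 and 9 and 2 in flank replicates 2 and 3.

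Cdsn and Casp14 act late in cornification. Cdsn (chromosome 17, 35543101 to 35557180) encodes corneodesmosin, which holds the cells of the horny layer together, and measured 2.27, 14.3 and 0.98 CPM in the footpad tumors and 4.42, 4.02 and 1.53 CPM in the flank tumors. Flank replicate 1 was its second tumor with 256 reads, although that tumor had no read on 57 of the 64 genes. The log2 difference of 0.82 (edgeR adjusted p = 0.607) turned to -1.03 without footpad replicate 2. Casp14, the protease that takes part in filaggrin breakdown, had 6, 35 and 4 reads in the footpad tumors and 0, 0 and 6 in the flank tumors.

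**Figure D3:**
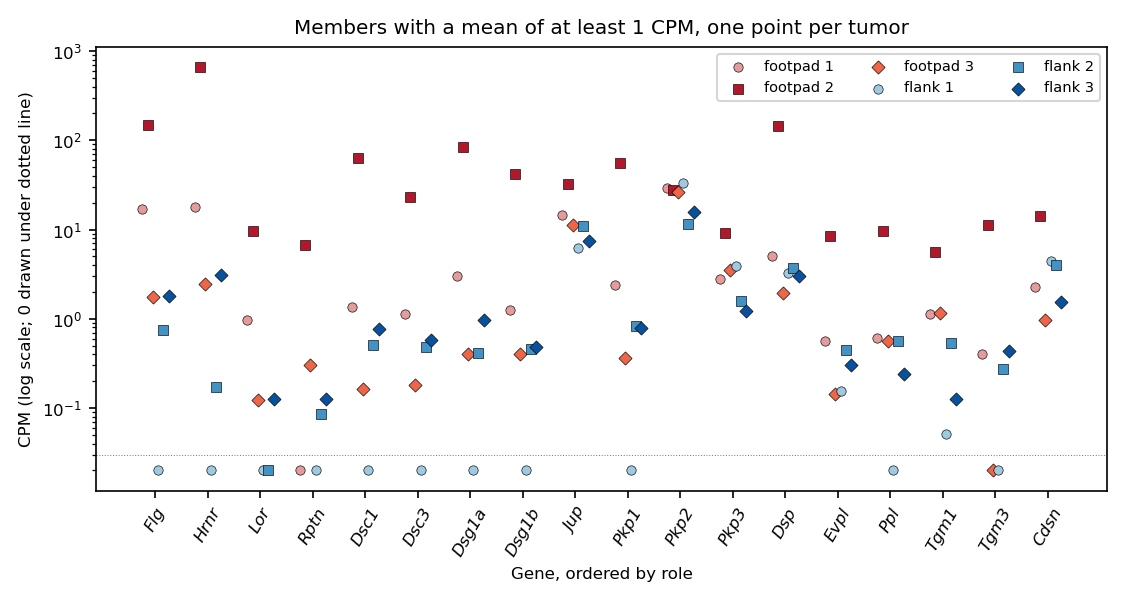
CPM (log scale) in each tumor of the 18 genes with a mean of at least 1 CPM, ordered by role, with zeros drawn under the dotted line. Footpad replicate 2 (dark red squares) lies highest in 17 of the 18, footpad replicate 3 and the flank tumors overlap in most, and Pkp2 is the gene with the narrowest spread of tumors.

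The comparison of footpad with flank tumors was fitted over all 17210 genes that passed edgeR's filter on low counts, among them 18 of the 64 genes. The other 46 were not tested, and since a gene passed only with enough reads in 3 tumors, counts over the 18 describe those genes and not the set. EdgeR's quasi-likelihood test called 0 of the 18, where a call required a fold change of at least 2 besides an adjusted p under 0.05. Among all genes tested 3.76% were called, and 2.89% as higher in footpad tumors. At an unadjusted p under 0.05 the count was 12 of 18, against 25.3% of all genes. DESeq2 called 4 of the 18 higher in footpad tumors (Evpl, Flg, Jup and Tgm1), against a background of 8.75% in either direction and 6.71% higher in footpad tumors, and it gave no p for 6 because of its filter on outlying counts. Without that filter it called 5, with Hrnr as the addition at an adjusted p of 0.0226, where 8.79% of all genes were called. The fitted log2 difference was positive in 17 of the 18, the exception being Sprr1a at -0.14, and its median was 3.85, beside -0.00 over all genes tested.

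These sizes came largely from footpad replicate 2. It was the highest tumor in 16 of the 18 genes tested and at least 10 times the next tumor in 10 of them. Without it the median log2 difference of the same 18 genes was 0.86, with 15 positive, and edgeR called 0 of 18 (4.97% of all genes), with 2 at an unadjusted p under 0.05 (25.7% of all genes), Flg at a log2 difference of 3.45 and Tgm1 at 2.26. The sites did not overlap in 3 of the 18 genes, Jup, Ppl and Tgm1, each higher in footpad tumors, where 17.5% of all genes lay wholly higher in footpad tumors. None of the 18 lay wholly higher in flank tumors, where 14.9% of all genes did. The plot of fitted differences shows the shift of each gene when this tumor was left out.

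**Figure D4:**
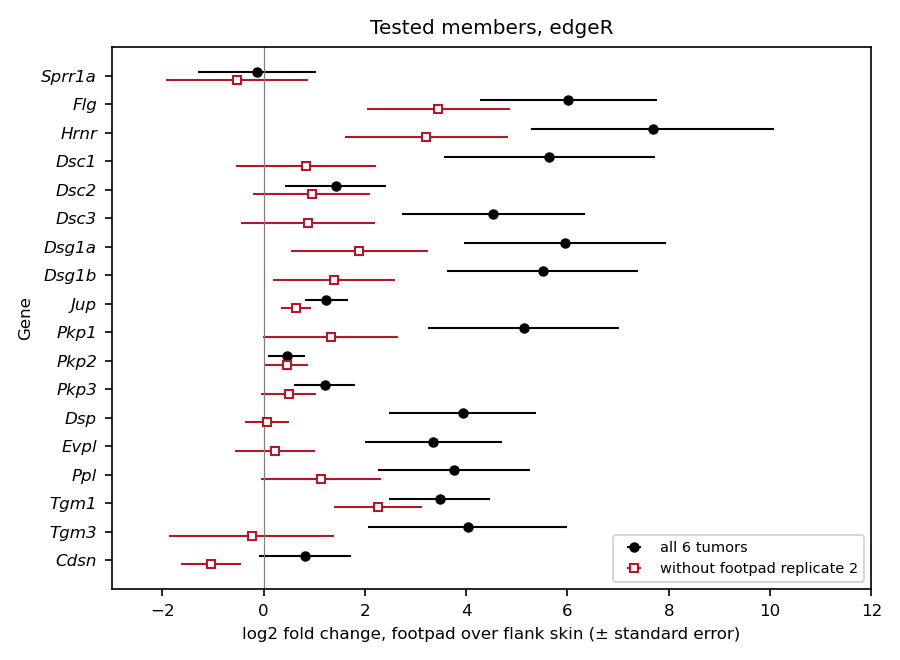
Log2 fold change of footpad over flank tumors with its standard error from edgeR for the 18 genes tested, over all 6 tumors (black circles) and without footpad replicate 2 (open red squares). Without this tumor Dsp moves from 3.93 to 0.07 and Cdsn and Tgm3 fall below 0, whereas Pkp2 stays at 0.46.

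The proportions among the genes can be set side by side where a tumor held reads. Of the reads on Hrnr and Flg together, Hrnr took 51.2% in footpad replicate 1 (95% Clopper-Pearson interval 48.7 to 53.8), 81.6% in footpad replicate 2 (81.3 to 81.9) and 58.5% in footpad replicate 3 (51.5 to 65.4). In flank replicates 2 and 3 it took 18.5% (9.25 to 31.4) and 63.2% (57.5 to 68.6), and flank replicate 1 had no read on either. Between footpad replicates 1 and 2 the intervals lay apart, which compares these libraries by their counting error only and not by the spread between tumors.

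Among the desmocollins the spread was smaller. Dsc1, of the upper layers, took 73.0% of the reads on Dsc1 and Dsc3 in footpad replicate 2 (71.8 to 74.1) and 55.0% in footpad replicate 1 (45.2 to 64.4). In flank replicates 2 and 3 it took 51.7% and 57.1%, from 58 and 84 reads. The keratin pair of differentiated and basal cells, Krt10 and Krt14, also varied: Krt10 took 85.2% of their reads in footpad replicate 2, 65.3% in footpad replicate 1 and 74.8% in footpad replicate 3. It took 21.6% and 36.5% in flank replicates 2 and 3, where basal Krt14 had more reads. Flank replicate 1 had 6 reads on the pair, 3 of them on Krt10, and its interval of 11.8 to 88.2 covers the share of every footpad tumor. Dsg1a took 66.7% of the reads on Dsg1a and Dsg1b in footpad replicate 2 (65.7 to 67.7), 70.8% in footpad replicate 1 (63.9 to 77.2) and 50% in footpad replicate 3 (33.8 to 66.2). It took 47.1% (32.9 to 61.5) and 67.03% (56.4 to 76.5) in flank replicates 2 and 3, so that flank replicate 2 was the tumor whose interval lay apart from that of footpad replicate 2. These intervals count reads as independent molecules and cover counting error only.

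Other genes of the epidermal barrier, from lists of their own, were read from the same fit. Of 27 further cornified envelope genes, 19 were tested and 2 were called, both higher in footpad tumors. Asprv1, the protease that processes profilaggrin, measured 22.6, 42.5 and 7.80 CPM in the footpad tumors and 0.397, 1.15 and 0.847 CPM in the flank tumors, with a log2 difference of 4.93 (standard error 0.70, edgeR adjusted p = 0.0174). Unlike its substrate Flg, it did not overlap between the sites. S100a16, a calcium-binding protein, measured between 7.86 and 11.2 CPM in the footpad tumors and between 3.23 and 4.62 CPM in the flank tumors, a log2 difference of 1.24 (edgeR adjusted p = 0.0387). Calm4, a calmodulin-like protein of the epidermis, measured 3.61, 62.8 and 0.551 CPM in the footpad tumors and 0, 0.222 and 1.26 CPM in the flank tumors, an order close to that of Flg, and was not called (edgeR adjusted p = 0.129). Anxa1, a membrane-binding protein of many cell types, measured 522, 551 and 583 CPM in the footpad tumors and 361, 258 and 255 CPM in the flank tumors. Its log2 difference of 0.92 (edgeR adjusted p = 0.0363) was short of the fold change needed for a call.

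Of 21 proteases and inhibitors that act on corneodesmosomes, 11 were tested and 1 was called. Klk8, a kallikrein protease, measured 1.37, 3.27 and 1.76 CPM in the footpad tumors and 0.207, 0.0684 and 0.320 CPM in the flank tumors, and rose by 3.41 on the log2 scale (edgeR adjusted p = 0.0327). Spink5, a protease inhibitor of the same list, measured 0.831, 21.1 and 0.245 CPM in the footpad tumors and 0.0690, 0.479 and 0.623 CPM in the flank tumors (edgeR adjusted p = 0.158). The 2 genes thus differed in how the tumors lay, with the footpad tumors apart from the flank tumors for Klk8 and only footpad replicate 2 apart for Spink5.

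Of 21 transcription factors of epidermal differentiation, 10 were tested and 1 was called. Barx2, a homeobox factor, measured 0.651, 1.30 and 0.388 CPM in the footpad tumors and 0, 0.0684 and 0.0320 CPM in the flank tumors (edgeR adjusted p = 0.041). Klf4, required for barrier formation, measured 11.5, 26.2 and 8.74 CPM in the footpad tumors and 6.76, 7.22 and 6.79 CPM in the flank tumors, with an edgeR adjusted p of 0.123. Grhl3, a grainyhead factor, measured 1.75, 3.41 and 1.33 CPM in the footpad tumors and 1.60, 0.667 and 0.959 CPM in the flank tumors. These 3 genes do not stand for the list. Footpad replicate 2 was the highest tumor in 15 of its 19 genes with 10 reads or more, against 16% of all genes tested. The 19 include genes that did not pass the filter on low counts, so the 16% is not a matched background for them. The list summed to 45.3, 77.9 and 29.7 CPM in the footpad tumors and to 23.7, 22.7 and 21.5 CPM in the flank tumors.

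Of the marker lists of other cell types, those of keratinocytes, of skeletal muscle, and of simple epithelia and eccrine glands had their highest sum in footpad replicate 2. The other lists did not. The 14 keratinocyte markers, of which 11 were tested and 0 were called by edgeR (5 at an unadjusted p under 0.05) and 2 by DESeq2, summed to 44.4, 1052 and 17.3 CPM in the footpad tumors and to 9.54, 11.8 and 25.0 CPM in the flank tumors, with 90.7% in footpad replicate 2. There Krt2, a keratin of the upper epidermis, reached 592 CPM, Krt10 282 CPM and Krt1 62.7 CPM, ahead of the basal Krt14 at 49.1 CPM and Krt5 at 25.2 CPM. In flank replicate 1 the defining Krt1, Krt2 and Krt5 were at 0, and Krt80 made up 8.38 of its 9.54 CPM. The sum over the 59 genes without 10 reads in every tumor was 1.19, 1.11 and 0.511 times the keratinocyte sum in the footpad tumors and 0.0217, 0.569 and 0.467 times in the flank tumors. Krt80 lay between 7.25 and 14.6 CPM in all tumors. It also made up 7.25 of 11.8 CPM in flank replicate 2 and 7.68 of 17.3 CPM in footpad replicate 3. Where the keratinocyte sum was low, the ratio thus depended much on Krt80, and the ratios give no order of the sites.

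The 14 skeletal muscle markers, with 0 called by edgeR (2 at an unadjusted p under 0.05) and 0 by DESeq2, were also highest in footpad replicate 2, each of them. They summed to 46.1, 736 and 11.8 CPM in the footpad tumors and to 17.2, 88.8 and 16.6 CPM in the flank tumors. Flank replicate 2 was their second tumor, whereas for the 59 genes it was the second lowest. Of 10 fibroblast markers 7 were called higher in footpad tumors, with sums of 3113, 3039 and 4278 CPM against 126, 484 and 163 CPM, and here footpad replicate 2 was the lowest of the footpad tumors. Of 10 endothelial markers 3 were called higher in footpad tumors (Pecam1, Tie1 and Emcn), and footpad replicate 2 was the highest tumor for 0 of them. Of 7 markers of simple epithelia and eccrine glands 1 was called, Krt8, with 11, 12 and 12 reads in the footpad tumors and 0 in each flank tumor. The sum of these 7 was 3.30, 9.23 and 3.14 CPM in the footpad tumors and 1.98, 1.74 and 1.76 CPM in the flank tumors. Of 10 macrophage and neutrophil markers 1 was called, Cd68, at a log2 difference of 1.51. Of the 10 melanocyte markers 0 were called by edgeR (1 at an unadjusted p under 0.05) and 0 by DESeq2, and their sum in footpad replicate 2 was 18758 CPM, within the range of the other tumors. The part of skin or muscle tissue in the levels of the cornified envelope and desmosome genes was not tested.

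**Figure D5:**
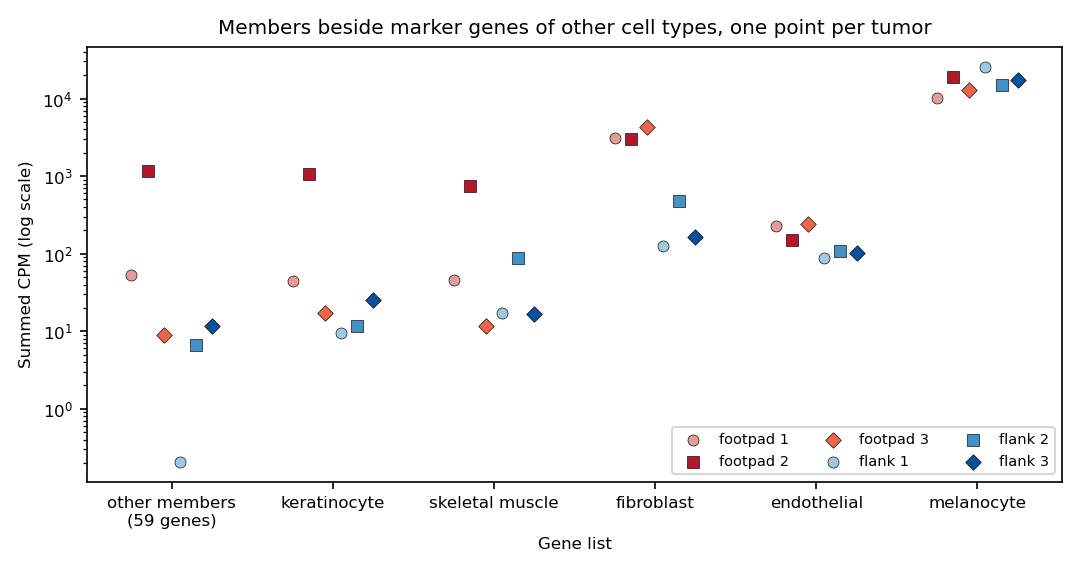
Summed CPM (log scale) of the 59 genes without 10 reads in every tumor and of marker lists of 5 cell types, with 1 point per tumor. Footpad replicate 2 stands apart from the other footpad tumors for the 59 genes (1170 CPM), keratinocyte (1052 CPM) and skeletal muscle markers (736 CPM), and is the lowest footpad tumor for fibroblast (3039 CPM) and endothelial markers (148 CPM).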

How the data were processed

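Total RNA of 3 footpad and 3 flank skin B16F10 tumors was analysed, grouped by the sample labels. The authors aligned reads with HISAT2 2.1.0 to mm10 after FastQC 0.11.7 and Trimmomatic, per the submitters' processing notes, and deposited raw counts of reads on each gene as well as FPKM, which they scaled for length and depth. The counting program and its treatment of reads on several genes are not given in the sources used here.

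The count model was edgeR 4.0.16 under R 4.3.3 (TMM, filterByExpr, glmQLFit, glmQLFTest, Benjamini-Hochberg adjustment over 17210 genes). A call needed a fold change of at least 2 besides an adjusted p under 0.05. Standard errors are approximate, the log2 difference over the root of F. The common biological coefficient of variation was 0.338, and same-site pairs exceeded sampling noise (chi-square per gene of 62.3 to 578). Alternatives used DESeq2 1.42.0, with which the authors tested, limma 3.58.1 on log2(FPKM + 1) and log2(FPKM + 0.1), no filter, 10 counts in every tumor, upper-quartile or library-size scaling, a replicate block and each tumor left out. DESeq2 without its filter on outlying counts, and leaving out footpad replicate 2 on the same genes, were chosen after seeing the data. Scripts were tested on simulated negative binomial counts in which no single tumor was set apart. The limit on false calls in that test was not applied to DESeq2.

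Values in every tumor are given for genes of the set with a mean of at least 1 CPM, and from other lists for called genes and some of the 4 with the highest mean. Other genes named with reads, and Spink5, Grhl3, Krt9, Krt5 and Krt14, were chosen after their values were seen. The members and lists were chosen with earlier results of these data known. Coordinates and promoters are from RefSeq (GRCm38.p6), which matched all 64 genes by identifier and overlaps 9 of them (among them Flg, Dsg1a, Evpl, Ppl and Tgm3) with another gene. The libraries are stranded, and whether counting used strand is not given in the sources used here, so reads of those genes are uncertain. Of the list genes, 2 (Kplce and Alox15b) were not matched in the table. Python 3.11.15 with pandas 2.3.3, numpy 2.4.6, scipy 1.17.1 and matplotlib 3.10.9 made tables and figures. Same-numbered tumors were checked for pairing by the correlation of their deviations from the site means, which was 0.13, -0.16 and -0.09. With so few tumors per site, this cannot show whether same-numbered tumors shared a mouse.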

Additional observations from a re-analysis of the deposited data

How the results depend on the processing

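The 0 calls of edgeR became 4 with DESeq2 and 5 without its filter on outlying counts, and lay between 0 and 1 when tumors were left out in turn, the 1 being Pkp2 without flank replicate 1. The median log2 difference of 3.85 was 1.23 over the 5 genes with 10 counts in every tumor, 0.74 with limma on log2(FPKM + 1), 1.55 when 0.1 was added in place of 1, and between 0.85 (0.86 on the same genes) and 5.71 with a tumor left out, the lowest without footpad replicate 2. Genes without overlap between sites, 3 in all, were 1 with the 10-count filter, 1 with library size only, and between 3 and 22 with a tumor left out, the 22 of 30 tested without footpad replicate 3, where 38.3% of all genes did not overlap, against 32.5% over 6 tumors. Of 139 other list genes tested 18 were called. This was 31 with DESeq2, 34 without its outlier filter, 0 with the replicate block, and between 0 (without footpad replicate 3) and 22 (without footpad replicate 2) with a tumor left out, with 1 without footpad replicate 1, 1 without flank replicate 3 and 7 without flank replicate 1. The calls over all genes moved alike, from 647 to 0 without footpad replicate 3, 31 without footpad replicate 1, 46 without flank replicate 3 and 308 without flank replicate 1. Signs turned for Cdsn (-1.04, -1.03 on the same genes, up to 1.32 with another tumor left out) and Tgm3 (-0.24, up to 4.80) without footpad replicate 2, and for Sprr1a with limma on log2(FPKM + 0.1) (0.081), the replicate block (0.12), and without footpad replicate 3 (0.31) or flank replicate 2 (0.93, lowest -0.72). Among 275 single-gene values, 8 turned sign, 10 gained a call, and 257 kept their sign, 6 of them with no adjusted p and 251 on the same side of the threshold, among them Dsp at 0.064 without footpad replicate 2. The cause of these changes was not tested.

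Of the 6 tumors, 1 correlated best with its own number, which does not settle whether same-numbered tumors shared a mouse. With the block, edgeR called 0 of the 18 genes and 0 of all genes, against 647 without it, and the median log2 difference was 3.21. At an unadjusted p under 0.05 the block fit held 4 of the 18 genes, beside 3551 of all 17210 genes. The share of summed CPM in footpad replicate 2 was 83.4% by library size only and 75.2% in FPKM, beside 82.8%, and 49 genes stayed highest there under both. Depth limits the 13 genes with fewer than 10 reads in all.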

Other observations

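Barrier lipid genes, whose products make the lipid envelope that covers the cornified cell, included abundant genes that were spread over all tumors and sparse genes found mostly in footpad replicate 2. Of 22 listed, 13 were tested and 0 were called by edgeR (3 at an unadjusted p under 0.05) or DESeq2. Their summed level was 419, 662 and 461 CPM in the footpad tumors and 429, 444 and 482 CPM in the flank tumors, with 22.9% in footpad replicate 2. Abca12, the lipid transporter of lamellar granules, measured 44.5, 88.8 and 63.3 CPM in the footpad tumors and 35.0, 72.8 and 87.2 CPM in the flank tumors, with a log2 difference of 0.01. Yet footpad replicate 2 was the highest tumor in 18 of the 21 genes with 10 reads or more, against 16% of all genes tested. Since the 21 include genes that did not pass the filter on low counts, the 16% is not a matched background for them. Alox12b, a lipoxygenase that acts on epidermal ceramides, had 16, 287 and 6 reads in the footpad tumors and 0 in each flank tumor. Sptlc3, a subunit of the enzyme that starts ceramide synthesis, had 111 reads in footpad replicate 2 and none elsewhere. Alox12b and Sptlc3 were chosen after their values were seen.

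Of 24 adherens and tight junction genes, 19 were tested and 2 were called, both higher in footpad tumors. Nectin1, an adhesion protein of adherens junctions, measured 3.61, 4.21 and 2.98 CPM in the footpad tumors and 0.172, 0.239 and 0.224 CPM in the flank tumors (edgeR adjusted p = 0.00677). Cldn1, the claudin of the epidermal tight junction, measured 2.11, 2.32 and 0.755 CPM in the footpad tumors and 0.0690, 0.274 and 0.0799 CPM in the flank tumors (edgeR adjusted p = 0.0375). Both lay apart between the sites in every tumor, but they are named here because they were called. Of the 19 genes tested in this list, 9 lay wholly higher in footpad tumors, against 17.5% of all genes. Another 1 lay wholly higher in flank tumors, against 14.9% of all genes. Of the 5 desmosomal cadherins tested, 0 lay wholly apart. Ctnnb1, the beta-catenin that binds classical cadherins, was between 1273 and 2271 CPM in all tumors.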
